A study of Homo sapiens with 6 samples.

Results

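The 6 genes studied mark the neural crest stem-like state of melanoma and are not the receptors that define it: AQP1, TMEM176A, TMEM176B, A2M, CADM1 and SYT11. Their RNA was measured by sequencing. They were chosen by name, and each was 1 of the 57914 genes in the deposited count and TPM tables. The cells were A375, an established human melanoma line, grown in high-glucose DMEM with serum. They were stained with Aldefluor, a substrate that becomes fluorescent inside cells that have aldehyde dehydrogenase (ALDH) activity, and sorted. The ALDH_High group held 3 libraries from the 5% of cells with the strongest signal, and the ALDH_Low group held 3 libraries from the 5% with the weakest. Both groups came from this 1 line with the same staining. The labels name no unsorted control and do not say whether the 3 libraries of a group came from separate cultures, so p-values measure the spread between these libraries, which may be technical.

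The neural crest is the embryonic cell population that gives rise to melanocytes and Schwann cells. Melanoma cells can enter a state that resembles it, with low pigment gene expression and high expression of neural crest and glial genes, and this state is known from cells that persist under targeted therapy. Of the proteins examined here, AQP1 is a water channel and CADM1 an immunoglobulin-type adhesion molecule. TMEM176A and TMEM176B are multi-pass membrane proteins related to the MS4A family. A2M is a secreted protease inhibitor, and SYT11 is a membrane protein of intracellular vesicles.

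The markers did not form 1 block. CADM1 and A2M were higher in ALDH_High, AQP1 was lower in ALDH_High, SYT11 did not pass the test, and TMEM176A and TMEM176B were at or below 2 counts in every library. Of the 4 genes expressed highly enough to be tested, 2 rose and 1 fell by the quasi-likelihood test of edgeR, with a threshold of 0.05 on p adjusted over all 17047 genes tested (Benjamini-Hochberg). Over all genes tested, 20.6% were called, 10.8% higher and 9.83% lower, and the groups did not overlap in 37.8%. The median log2 fold change was 1.07 for the 4 genes, a midpoint between values that went both ways, and -0.013 for all genes. In these bulk libraries, fewer cells that express a gene and less RNA of it per cell cannot be told apart.

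**Figure D1:**
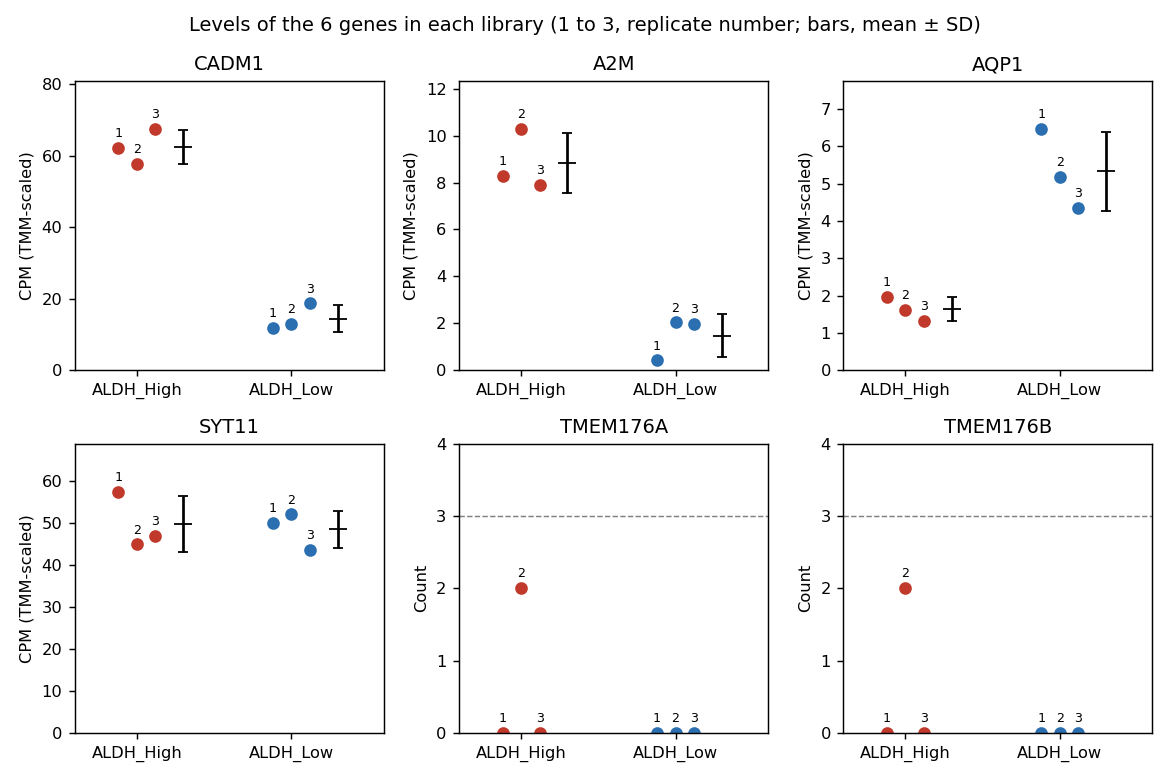
Levels of the 6 genes in each library, as CPM (counts scaled to TMM-adjusted library size) for CADM1, A2M, AQP1 and SYT11 and as counts for TMEM176A and TMEM176B; points are libraries with their replicate number, bars are the mean ± SD of 3 libraries, and the dashed line marks 3 counts. CADM1 and A2M lie higher in all ALDH_High libraries, AQP1 lies lower in all of them, SYT11 overlaps, and ALDH_High library 2 alone holds any count of TMEM176A or TMEM176B.

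CADM1 (ENSG00000182985, chromosome 11, 115169218 to 115504957, minus strand, GRCh38) codes for a cell adhesion molecule that binds itself and related molecules on neighbouring cells. It had 62.2, 57.9 and 67.5 CPM in the ALDH_High group, libraries 1 to 3, against 11.8, 12.9 and 18.7 CPM in the ALDH_Low group. The groups lay far apart, and the highest ALDH_Low library was still well below the lowest ALDH_High library. The means were 62.5 ± 4.81 and 14.5 ± 3.70 CPM (SD, n = 3), a 4.32-fold ratio. The log2 fold change of CADM1 was 2.11 (SE 0.18, 95% interval 1.72 to 2.51, edgeR adjusted p 3.48e-05). An exact two-sided permutation test of the 6 values returned p = 0.1, the lowest possible with 3 libraries a group. The size of this change exceeded that of 95.5% of the genes tested. Expressed per transcript length, CADM1 stood above 76.6% of the tested genes in ALDH_High and above 48.7% in ALDH_Low.

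A2M (ENSG00000175899, chromosome 12, 9067664 to 9116229, minus strand) codes for alpha-2-macroglobulin, which traps proteases and is cleared through the receptor LRP1. It had 8.28, 10.3 and 7.92 CPM in the ALDH_High group and 0.415, 2.04 and 1.98 CPM in the ALDH_Low group, in library order. All ALDH_High libraries were above all ALDH_Low libraries, and ALDH_Low library 1, with 16 counts, lay clearly under the other two of its group. The means were 8.82 ± 1.27 and 1.48 ± 0.921 CPM (SD, n = 3), a 5.97-fold ratio. The log2 fold change of A2M was 2.60 (SE 0.45, 95% interval 1.59 to 3.61, edgeR adjusted p 0.00270; exact permutation p = 0.1). Without ALDH_Low library 1 it was 2.15. On the log2(TPM + 1) scale, which understates the change of low genes, it was 1.47 and still past the threshold. The antisense gene A2M-AS1, which overlaps the end of A2M, had at most 3 counts in any library. Whether the authors' counting used strand is not given in the sources used here.

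AQP1 (ENSG00000240583, chromosome 7, 30911853 to 30925517, plus strand) codes for a channel that lets water cross the plasma membrane, and it went the other way. It had 1.97, 1.62 and 1.32 CPM in the ALDH_High group and 6.46, 5.19 and 4.35 CPM in the ALDH_Low group, in library order. Every ALDH_Low library lay above every ALDH_High library, and counts were 45 to 56 against 121 to 249. The means were 1.64 ± 0.327 and 5.33 ± 1.06 CPM (SD, n = 3), so that AQP1 was 3.26-fold higher in ALDH_Low. The log2 fold change was -1.71 (SE 0.26, 95% interval -2.29 to -1.13, edgeR adjusted p 0.00128; exact permutation p = 0.1). On the log2(TPM + 1) scale it was -1.03, past the threshold. A read-through gene that overlaps AQP1, ENSG00000250424, had at most 3 counts, and GHRHR, the next gene downstream, at most 4.

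The RefSeq promoter table (GRCh38.p14) held windows for 4 of the 6 genes, AQP1, SYT11, TMEM176A and TMEM176B. The 250 bases before the start site were searched on both strands for 6 strings. They were 2 core SOX strings (ACAAAG and ACAATG), the TFAP2 string GCCNNNGGC, the E-box CACGTG, the retinoid half-site AGGTCA and the TATA string TATAAA. A match describes letters in a window and not a bound site. The window of AQP1 is shown because AQP1 is the only gene of the 4 that passed the test, and its window alone of the 5 holds the TATA string. Of the 2 windows of TMEM176B, that at chr7:150801361-150801610 (minus strand) also held matches, the reverse complement of ACAATG 193 to 188 bases before the start and AGGTCA 106 to 101 bases before it. In the AQP1 window, capitals mark the reverse complement of ACAAAG, 57 to 52 bases before the start, and TATAAA, 30 to 25 bases before it (chr7:30911603-30911852, plus strand, 5′ to 3′).
AQP1: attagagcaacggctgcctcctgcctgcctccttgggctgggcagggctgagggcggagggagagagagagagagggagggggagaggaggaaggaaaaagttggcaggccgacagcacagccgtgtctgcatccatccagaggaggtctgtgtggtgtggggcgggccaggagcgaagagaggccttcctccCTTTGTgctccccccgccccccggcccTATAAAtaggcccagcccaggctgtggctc
TATAAA occurred in 10.8% of 34943 such windows over all genes and ACAAAG in 13.7%. ACAATG occurred in 9.3%, GCCNNNGGC in 19.7%, CACGTG in 6.32% and AGGTCA in 12.1%. The AQP1 window had 65.2% G and C, more than 67.6% of all windows, and 8 CpG dinucleotides.

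SYT11 (ENSG00000132718, chromosome 1, 155859567 to 155885199, plus strand) belongs to the synaptotagmins, membrane proteins that act in vesicle traffic. It had 57.3, 44.8 and 46.9 CPM in the ALDH_High group and 49.9, 52.0 and 43.5 CPM in the ALDH_Low group, in library order. The groups overlapped, with the highest value in ALDH_High library 1 and the lowest in ALDH_Low library 3. The means were 49.7 ± 6.69 and 48.4 ± 4.43 CPM (SD, n = 3). The log2 fold change of SYT11 was 0.035 (SE 0.13, edgeR adjusted p 0.890; exact permutation p = 0.8). Its 95% interval ran from -0.26 to 0.33, which leaves room for a small change in either direction. The sign also turned under another scaling of the libraries, to -0.014 with upper-quartile factors.

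The start of SYT11 lies 167 bases from that of GON4L, a gene on the opposite strand that codes for a transcriptional regulator. Neighbours were genes that overlap any of the 6 or start within 50 kb of its start. Of these, GON4L alone was expressed highly enough to be tested. Genes near the far end of a marker that start further away were not searched. GON4L had 70.8 ± 8.74 CPM in the ALDH_High group and 65.7 ± 6.31 CPM in the ALDH_Low group (mean ± SD of 3 libraries; log2 ratio 0.11 with an SE of 0.13; adjusted p 0.619 by edgeR). The window before the start of SYT11, which contains the start of GON4L, is shown for comparison with that of AQP1. It held none of the 6 strings, had 60% G and C and carried 19 CpG dinucleotides against 8 (chr1:155859317-155859566, plus strand, 5′ to 3′).
SYT11: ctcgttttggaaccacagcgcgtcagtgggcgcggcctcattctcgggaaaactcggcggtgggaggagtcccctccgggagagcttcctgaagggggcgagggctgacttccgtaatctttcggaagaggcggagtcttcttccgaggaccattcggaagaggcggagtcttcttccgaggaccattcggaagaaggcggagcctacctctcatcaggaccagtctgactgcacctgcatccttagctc

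TMEM176A (ENSG00000002933, chromosome 7, 150800403 to 150805118, plus strand) and TMEM176B (ENSG00000106565, chromosome 7, 150791285 to 150801360, minus strand) lie on opposite strands and overlap by their first parts. Each had 2 counts in ALDH_High library 2 and 0 counts in the other 5 libraries. At these depths a count of 0 allows a level of up to 0.0778 to 0.118 CPM, depending on the library (3 counts, counting error only). Both groups are at or below that floor, so no fold is given, and a difference between the groups was not detectable. The planned comparison of the TMEM176B to TMEM176A ratio between groups could not be run, since 1 library alone gives a ratio. The other gene in the table that starts within 50 kb of their starts, AOC1, also had at most 2 counts. TMEM176A and TMEM176B were thus at the floor in both sorted groups of this line.

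The window before the RefSeq start of TMEM176A is shown because it lies where these 2 genes overlap and shares bases with 1 of the 2 RefSeq windows of TMEM176B. It held none of the 6 strings, had 73.2% G and C, more than 86.2% of all windows, and carried 20 CpG dinucleotides (chr7:150800519-150800768, plus strand, 5′ to 3′).
TMEM176A: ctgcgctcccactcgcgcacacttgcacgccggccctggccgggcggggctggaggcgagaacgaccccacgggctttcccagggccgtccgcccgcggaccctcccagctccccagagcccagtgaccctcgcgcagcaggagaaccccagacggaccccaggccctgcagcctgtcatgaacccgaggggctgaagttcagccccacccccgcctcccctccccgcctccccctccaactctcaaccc

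Compared per transcript length, the order of the markers differed between the sorted groups. In ALDH_High the mean TPM was 38.9 ± 4.48 for CADM1, 13.0 ± 0.940 for SYT11, 3.13 ± 0.532 for A2M and 0.942 ± 0.133 for AQP1 (SD, n = 3), and no 2 neighbours in this order overlapped. In ALDH_Low it was 12.3 ± 1.52 for SYT11, 8.64 ± 1.89 for CADM1, 3.01 ± 0.672 for AQP1 and 0.501 ± 0.314 for A2M. There SYT11 and CADM1 overlapped over the 3 libraries, whereas AQP1 lay above A2M in each.

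Ratios within a library do not depend on how libraries are scaled. The TPM ratio of CADM1 to SYT11 was 2.56, 3.05 and 3.40 in ALDH_High libraries 1, 2 and 3 and 0.558, 0.589 and 1.02 in ALDH_Low. The ratio of A2M to AQP1 was 2.55, 3.86 and 3.68 in ALDH_High and 0.0380, 0.239 and 0.277 in ALDH_Low. All 3 ALDH_High libraries held more A2M than AQP1 and all 3 ALDH_Low libraries held less. These 2 pairs were picked with their values in view, so no test is given.

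**Figure D2:**
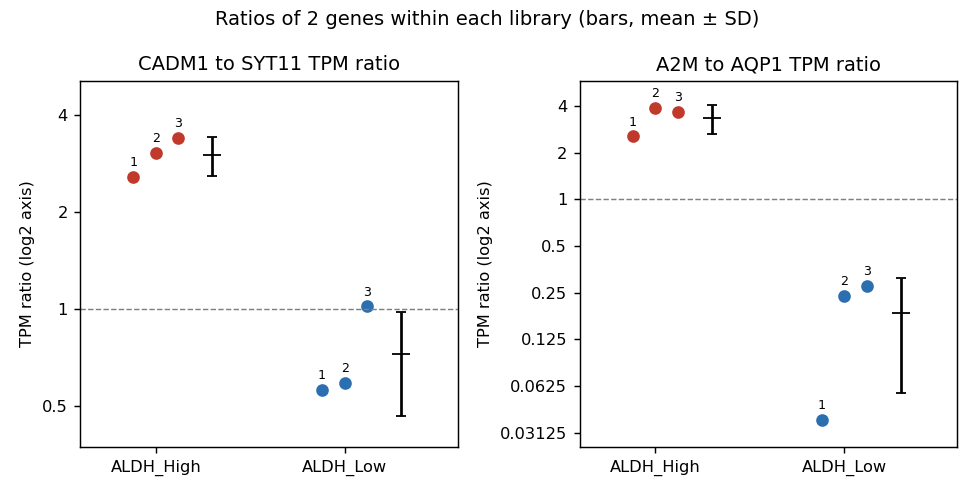
TPM ratio of CADM1 to SYT11 (left) and of A2M to AQP1 (right) in each library, on a log2 axis; points are libraries with their replicate number, bars are the mean ± SD of 3 libraries, and the dashed line is a ratio of 1. The A2M to AQP1 ratio runs from 2.55 to 3.86 in ALDH_High and from 0.0380 to 0.277 in ALDH_Low.

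The authors' deposited table holds log2 coefficients from a fit of 5 groups in which the reference was the group 1A3, whose libraries were not analysed here. For CADM1 the authors' deposited table gives 1.21 (high) and -0.93 (low). For A2M the authors' deposited table gives 1.88 and -0.72. Both genes thus lie on either side of the reference group. For AQP1 the authors' deposited table gives -0.14 and 1.55, so that the high group is close to the reference and the low group above it. For SYT11 the authors' deposited table gives 0.55 and 0.49, nearly the same in both. It also gives 1.71 and -0.07 for TMEM176A and 0.27 and -1.51 for TMEM176B. With at most 2 counts in any library analysed here, these 2 genes are not read as differing.

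The relatives of the markers were drawn from 5 lists of 67 genes, of which 30 could be tested, 5 rose and 6 fell. This share of 36.7% called stands beside 20.6% of all genes tested, and the median log2 fold change was 0.18.

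CADM1 moved with its own subfamily. CADM3 rose from 1.58 ± 0.632 to 43.1 ± 11.6 CPM in ALDH_High (mean ± SD of 3 libraries; log2 ratio 4.75 with an SE of 0.30; adjusted p 7.85e-06 by edgeR). CADM3 had 56.4, 37.5 and 35.4 CPM in ALDH_High against 2.15, 0.903 and 1.69 CPM in ALDH_Low. CADM4 rose from 57.3 ± 10.4 to 273.7 ± 27.0 CPM (log2 ratio 2.26 with an SE of 0.15; adjusted p 1.01e-05 by edgeR). CADM2 did not reach the filter and had 8 counts or fewer per library. CADM4 made up most of the summed TPM of CADM1 to CADM4, at 76.6 ± 3.51% in ALDH_High and 80.3 ± 1.45% in ALDH_Low (SD, n = 3). The CADM1 share was 15.3 ± 1.80% and 17.6 ± 1.21% (exact two-sided permutation p = 0.2), and that of CADM3 was 7.94 ± 2.43% and 1.5 ± 0.762%.

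The cytoplasmic partners of CADM1 went the other way or did not pass. EPB41L3, a band 4.1 protein that ties the tail of CADM1 to actin, had 2.33, 4.49 and 3.55 CPM in the ALDH_High group and 16.2, 34.0 and 28.1 CPM in the ALDH_Low group. It fell by 2.90 on the log2 scale (SE 0.31, edgeR adjusted p 0.000141), a 7.56-fold ratio of the means. MPP3, a scaffold protein, fell from 17.0 ± 2.26 to 8.11 ± 2.73 CPM (mean ± SD of 3 libraries; log2 ratio -1.06 with an SE of 0.23; adjusted p 0.00925 by edgeR). The call on MPP3 was lost in the unfiltered limma fit on log2(TPM + 1) (adjusted p 0.0957). CASK, another scaffold, had 22.3 ± 1.16 CPM in the ALDH_High group and 22.0 ± 1.49 CPM in the ALDH_Low group (edgeR adjusted p 0.944). Among the nectins and their relative PVR, only PVR passed, at 132.3 ± 5.31 against 101.2 ± 6.49 CPM (log2 fold change 0.39, edgeR adjusted p 0.0255). Over the list of CADM relatives, nectins and partners, 50% of the 10 genes tested were called, against 20.6% of all genes tested. The call on PVR was lost without ALDH_High library 2, without ALDH_Low library 1 and without ALDH_Low library 3, with an adjusted p of up to 0.0898.

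**Figure D3:**
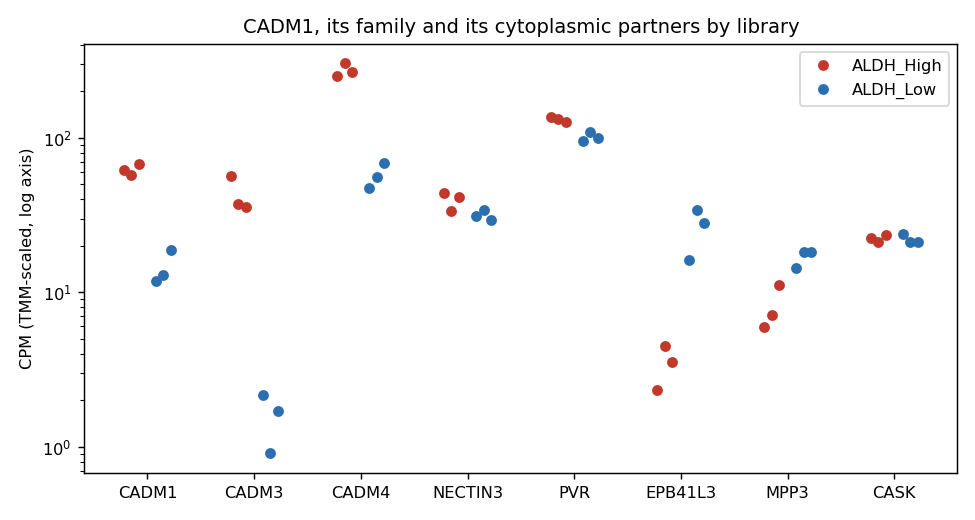
CPM of CADM1, of 2 other CADM genes, of NECTIN3 and PVR, and of 3 cytoplasmic partners (EPB41L3, MPP3, CASK) in each library, on a log axis; red points are ALDH_High libraries and blue points ALDH_Low libraries. The 3 CADM genes lie higher and EPB41L3 and MPP3 lower in every ALDH_High library, while CASK overlaps.

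Around A2M, 6 of 10 relatives and receptor genes could be tested, 1 rose and 2 fell. This share of 50% called stands beside 20.6% of all genes tested. CD109, a membrane-anchored member of the same family, had 201.1, 250.9 and 262.7 CPM in the ALDH_High group and 97.2, 112.5 and 86.5 CPM in the ALDH_Low group (log2 ratio 1.27 with an SE of 0.14; adjusted p 0.000182 by edgeR). Like A2M, it was higher in all ALDH_High libraries. LRP1, the receptor that takes up A2M with its bound protease, had 89.3, 64.6 and 65.5 CPM in the ALDH_High group and 144.3, 136.0 and 159.6 CPM in the ALDH_Low group. LRP1 fell to 73.1 ± 14.0 CPM from a mean of 146.6 CPM (edgeR adjusted p 0.000885). The complement protein C3 fell from 8.72 ± 4.47 to 2.79 ± 0.705 CPM (log2 fold change -1.66, edgeR adjusted p 0.00811), a call lost on the log2(TPM + 1) scale (adjusted p up to 0.133). PZP, the closest relative of A2M, had at most 1 count.

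None of the 4 other aquaporins tested passed the threshold, so AQP1 was the only one of the 5 tested to do so. AQP3, which also carries glycerol, had 8.91 ± 5.48 CPM in the ALDH_High group and 6.93 ± 2.17 CPM in the ALDH_Low group (SD, n = 3; edgeR adjusted p 0.588) and held the largest share of aquaporin TPM in both groups. The AQP1 share was 9.79 ± 1.59% in ALDH_High and 30.2 ± 1.06% in ALDH_Low. Whether AQP1 differs from the other aquaporins in its response was not tested. Of the 16 MS4A genes, relatives of TMEM176A and TMEM176B, 2 could be tested and 0 passed (edgeR adjusted p 0.327 for MS4A13 and 0.918 for MS4A4E). Neither of these had an unadjusted p under 0.05, nor did any of the 4 aquaporins, and the DESeq2 Wald test also called 0 of the 4 and 0 of the 2. Over all genes tested 20.6% were called, so 0 of so few genes says little about either family.

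SYT11 held most of the summed TPM of the 17 synaptotagmins SYT1 to SYT17, at 55.7 ± 2.98% in ALDH_High and 51.3 ± 3.45% in ALDH_Low (SD, n = 3; exact two-sided permutation p = 0.3). Of the other 16, 8 could be tested and 37.5% of these were called, against 20.6% of all genes tested. SYT3 rose from 0.832 ± 0.253 to 3.61 ± 0.740 CPM (log2 ratio 2.10 with an SE of 0.32; adjusted p 0.00126 by edgeR). SYT5 fell by 1.75 on the log2 scale and SYT14 by 0.86 (edgeR adjusted p 0.0127 and 0.0126). The call on SYT5 was lost without ALDH_High library 3, without ALDH_Low library 2 (adjusted p up to 0.0587) and in the unfiltered limma fit on log2(TPM + 1) (0.0908). The call on SYT14 was lost without ALDH_High library 2, ALDH_High library 3 or ALDH_Low library 1 (adjusted p up to 0.0595) and in all 3 limma fits on TPM (up to 0.203).

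A list of 32 other genes of the neural crest stem-like state was examined beside the markers, and 26 could be tested. In ALDH_High, 14 were higher and 2 lower, and 10 did not pass, so that 61.5% were called against 20.6% of all genes. Their median log2 fold change was 1.31. The list was put together with earlier results of these data known and is not independent evidence of a direction. With a filter that asked for 10 or more counts in each of the 6 libraries, 9 were higher. RXRG, TFAP2B, PRIMA1, SLC22A17 and THBS2 were higher in the reported fit but missed this filter. Each had under 10 counts in at least 1 ALDH_Low library and more than 10 in every ALDH_High library. The 61.5% thus includes genes that entered the test through ALDH_High.

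The rises with the smallest p were those of RXRG, GDNF, NES, PLAT, SOX10 and IL1RAP. RXRG, a retinoid X receptor, had 10.9 ± 2.69 CPM in the ALDH_High group and 0.195 ± 0.0825 CPM in the ALDH_Low group (SD, n = 3; log2 fold change 5.82, edgeR adjusted p 5.60e-06). GDNF, a ligand of the GFRA1 and RET receptors, had 13.1 ± 0.344 and 0.568 ± 0.225 CPM (4.54, edgeR adjusted p 5.94e-06). GFRA1 and RET were low. GFRA1 had 1.49 ± 0.122 and 1.09 ± 0.102 CPM (edgeR adjusted p 0.317). RET, too low to be tested, had 2, 4 and 10 counts in ALDH_High libraries 1 to 3 and 0 in each ALDH_Low library. GFRA2 and GFRA3, relatives of GFRA1, had at most 9 counts. NES, an intermediate filament of neural progenitors, rose by 2.71 on the log2 scale, PLAT, a plasminogen activator, by 2.14, SOX10, a neural crest transcription factor, by 1.79 and IL1RAP, an interleukin receptor subunit, by 1.88.

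L1CAM and VCAN of that list were lower in ALDH_High, as AQP1 was. L1CAM, a neural adhesion molecule, had 191.9, 179.9 and 152.6 CPM in the ALDH_High group and 366.1, 376.8 and 325.8 CPM in the ALDH_Low group (log2 ratio -1.03 with an SE of 0.12; adjusted p 0.000263 by edgeR). VCAN, a matrix proteoglycan, fell by 1.37 (edgeR adjusted p 0.0172), a call lost without ALDH_High library 2, ALDH_High library 3, ALDH_Low library 1 or ALDH_Low library 3 (adjusted p up to 0.0764) and in the unfiltered limma fit on log2(TPM + 1) (0.253). NGFR, the receptor most used to mark this state, had 25.6 ± 7.54 CPM in the ALDH_High group and 38.8 ± 7.98 CPM in the ALDH_Low group and did not pass (log2 ratio -0.60 with an SE of 0.21; adjusted p 0.0739 by edgeR). SEMA3B, a secreted semaphorin, rose by 0.61 on the log2 scale (edgeR adjusted p 0.0230), a call lost without ALDH_Low library 2, without ALDH_Low library 3 (adjusted p up to 0.0901) and in the unfiltered limma fit on log2(TPM + 1).

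**Figure D4:**
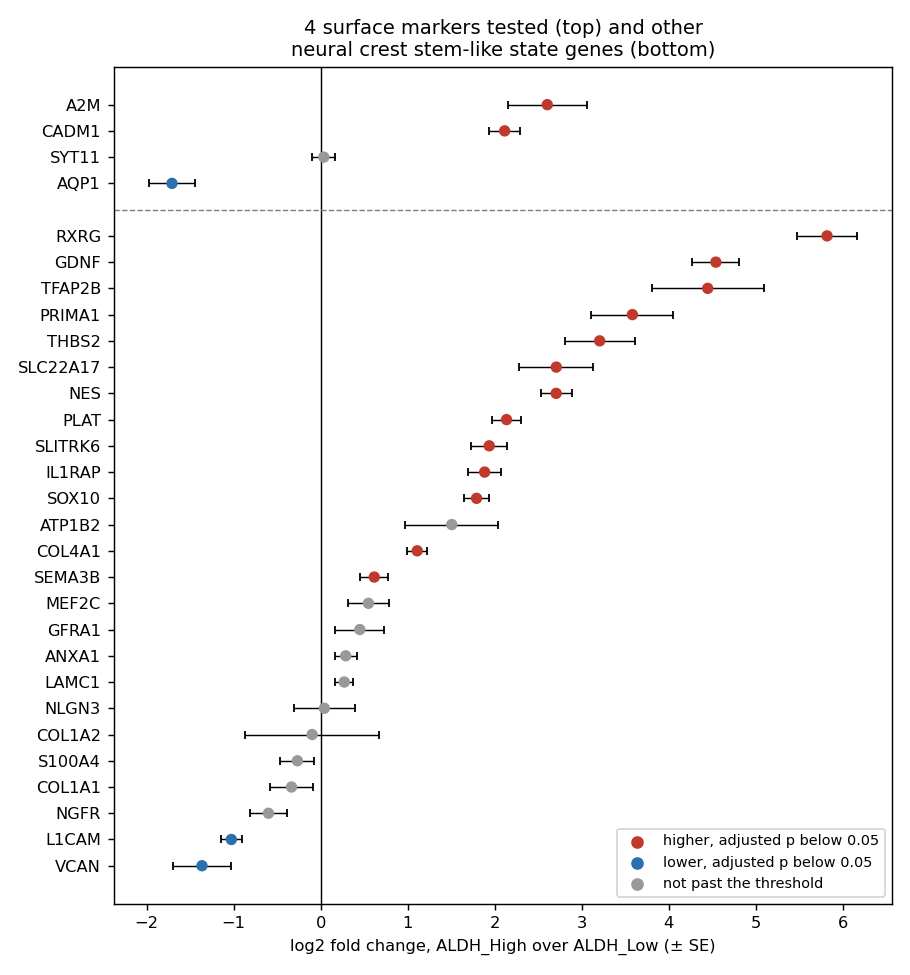
Log2 fold change of ALDH_High over ALDH_Low for the 4 markers tested (top) and for other tested genes of the neural crest stem-like state (bottom); bars are ± SE, red and blue points passed an adjusted p below 0.05 and grey points did not. CADM1 (2.11) and A2M (2.60) lie among the genes that rose, SYT11 sits near 0, and AQP1 (-1.71) has a more negative value than L1CAM and VCAN.

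The genes whose profile over the 6 libraries lay closest to that of each marker were found by the Euclidean distance between centred log2 CPM values, among 11022 to 11023 named genes whose mean reached 5 CPM. The distances describe these 6 libraries and carry no test. Closest to CADM1 were ANK3 (distance 0.259), FARP1 (0.283) and SOX11 (0.325), with log2 fold changes of 1.96, 2.10 and 2.16. ANK3 is a membrane scaffold and SOX11 a transcription factor of neural progenitors. Closest to A2M, though at larger distances, were IL16 (0.879), MMP17 (1.34) and LOXL3 (1.47), which had log2 fold changes of 2.68, 3.26 and 2.33. Closest to AQP1 were ADAMTS12 (0.135), the lincRNA AC104024.2 (0.291) and SEMA3F (0.390), all lower in ALDH_High, by log2 fold changes of -1.70, -1.90 and -1.84. ADAMTS12 is a secreted protease, and SEMA3F a guidance ligand. Closest to SYT11 were IP6K1 (0.0936), TRIM8 (0.10) and WBP1L (0.10), none of which passed the test (edgeR adjusted p 0.703 to 0.914).

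The 6 genes are also known from other cell types, so markers of these were read in the same libraries. Of 11 melanocyte lineage markers, 7 could be tested, 5 were higher in ALDH_High and 1 was lower. This share of 85.7% called stands beside 20.6% of all genes tested. The 11 genes summed to 1819 to 2540 CPM in ALDH_High and 1023 to 1048 CPM in ALDH_Low. SOX10 (670 ± 122 and 194 ± 18.3 CPM), MCAM, CSPG4, PRAME and S100B (log2 fold change 4.28) were higher. MITF, the master regulator of the melanocyte lineage, was lower, at 13.0 ± 0.944 against 24.7 ± 6.62 CPM (log2 fold change -0.92, edgeR adjusted p 0.00667), a call lost in the unfiltered limma fit on log2(TPM + 1) (0.109). The calls on PRAME and CSPG4 were lost without ALDH_Low library 3, and that on PRAME also without ALDH_Low library 1 or 2. MLANA and TYR had at most 3 counts. Leukocyte and macrophage markers, with which TMEM176A and TMEM176B are shared, summed to 13.0 to 24.5 CPM in the ALDH_High group and 59.2 to 70.7 CPM in the ALDH_Low group over 12 genes. Of these, 5 could be tested and 2 were lower in ALDH_High, so that 40% were called against 20.6% of all genes tested. Most of the sum was CD68, a lysosomal protein, at 17.4 ± 5.71 and 63.1 ± 6.50 CPM (log2 fold change -1.86, edgeR adjusted p 0.000273). CD14, a monocyte receptor, was also lower, at 0.224 ± 0.118 and 0.913 ± 0.252 CPM (-1.96, edgeR adjusted p 0.0142), a call lost in 4 of 12 alternatives, with adjusted p up to 0.0695 over them: without ALDH_High library 2, without ALDH_Low library 2, without ALDH_Low library 3 and in the unfiltered limma fit on log2(TPM + 1). CSF1R (-1.64), LAPTM5 (-0.82) and CD163 (-0.19) did not pass (edgeR adjusted p 0.0524, 0.243 and 0.919) and had at most 54 counts. PTPRC, CD3E, AIF1 and TYROBP had at most 4 counts. Endothelial markers, with which AQP1 and A2M are shared, summed to 13.9 to 16.2 and 4.82 to 6.06 CPM over 8 genes. Most of the ALDH_High sum was KDR (11.1 ± 1.73 and 0.905 ± 0.449 CPM). Among the 5 tested, KDR alone passed (log2 fold change 3.61, edgeR adjusted p 5.82e-05). That is 20% called, against 20.6% of all genes tested. PECAM1 (-0.77), TEK (-0.57), VWF (-0.19) and ESAM (-0.12) leaned lower in ALDH_High and did not pass (edgeR adjusted p 0.298 to 0.905). CDH5 (at most 17 counts) and EMCN (at most 27) leaned higher but were too low to be tested. CLDN5 had 0 counts in all libraries.

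Schwann and glial markers, which melanoma cells of this state express themselves, summed to 684 to 755 CPM in the ALDH_High group and 148 to 184 CPM in the ALDH_Low group over 8 genes. Of the 7 tested, 6 were higher, against 10.8% of all genes tested. MBP leaned the other way, at 0.0291 ± 0.0289 and 0.199 ± 0.129 CPM, and with at most 9 counts was too low to be tested. Fibroblast markers summed to 18.8 to 20.2 and 20.2 to 25.0 CPM over 8 genes. Of the 6 tested, 1 was lower in ALDH_High, so that 16.7% were called against 20.6% of all genes tested. It was PDGFRB, a call lost in the limma fits on log2(TPM + 1) with and without the filter (adjusted p up to 0.123). Hepatocyte and epithelial markers summed to 372 to 718 and 1162 to 1707 CPM over 7 genes, almost all KRT8 and KRT18, with ALB at most 3 counts. KRT8 and KRT18 were the 2 tested, and both were lower in ALDH_High, past the threshold in all 15 alternatives as well. The part of these marker levels in the results for CADM1, A2M and AQP1 was not tested.

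Total counts lay between 26692868 and 37830603 per library. Principal component 2 of log2 CPM, with 14.5% of the variance, set ALDH_High library 1 (49.1) apart from ALDH_High libraries 2 and 3 (-22.0 and -32.5). Without ALDH_High library 1, the log2 fold changes were 2.14 for CADM1, 2.67 for A2M, -1.84 for AQP1 and -0.063 for SYT11. The median log2 fold change of the chromosomes that carry the 6 genes lay between -0.056 (chromosome 12) and -0.0061 (chromosome 11).

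**Figure D5:**
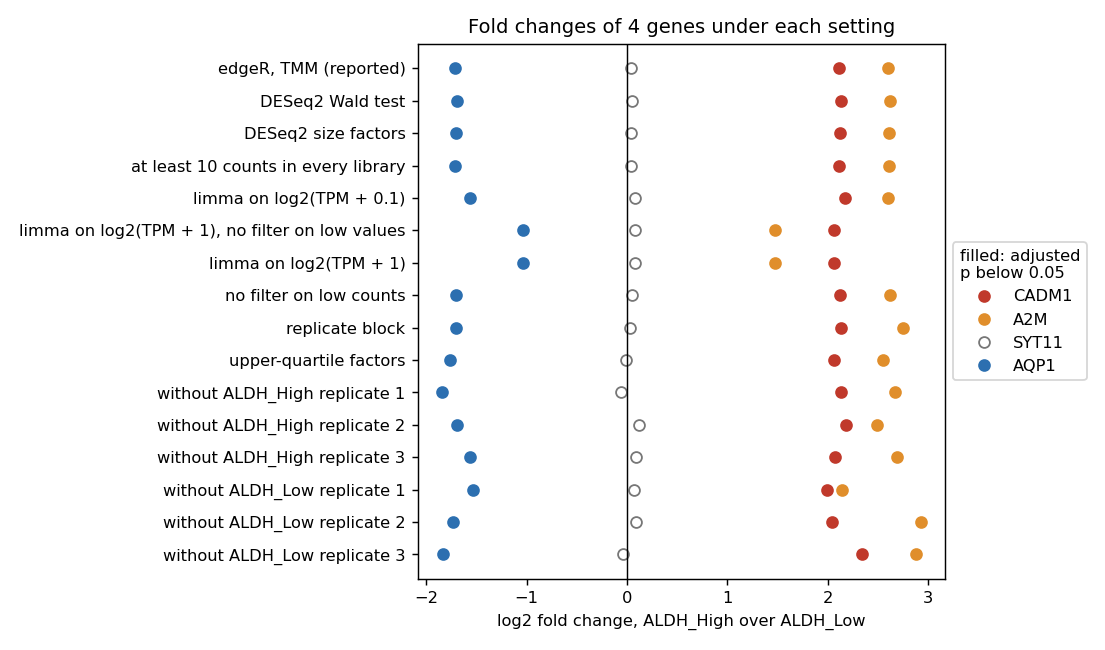
Log2 fold change of ALDH_High over ALDH_Low for CADM1, A2M, SYT11 and AQP1 under the reported fit and 15 alternatives; filled points passed an adjusted p below 0.05 and open points did not. CADM1 stays between 2.00 and 2.34, A2M between 1.47 and 2.93 and AQP1 between -1.84 and -1.03, all filled, and SYT11 lies on both sides of 0, always open.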

How the data were processed

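Poly(A) RNA of 6 sorted A375 samples was sequenced from stranded libraries, per the labels' protocols. FastQC 0.11.3, STAR 2.5.1b, HTSeq 0.6.1, DESeq2 and GRCh38 are named, with no roles, in the submitters' processing notes. The deposited counts were treated as estimated counts rounded to whole numbers, because 133 to 177 genes per library had 0 counts beside a deposited TPM above 0. The sources used here do not state which tool gave the counts. The deposited TPM values are the authors' own, with gene lengths not given in the sources used here. The authors' log2 coefficients come from DESeq2, per the file headers.

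The counts were filtered with filterByExpr (17047 genes), scaled with TMM factors and tested as planned for raw counts with edgeR 4.0.16 (glmQLFit and glmQLFTest, two-sided, threshold adjusted p 0.05, no block). Standard errors are the log2 fold change over the square root of F. Alternatives used limma 3.58.1, DESeq2 1.42.0, other scalings and filters, a replicate block and each library left out; scripts were tested on simulated data. A count of 3 or fewer was taken as the floor. Rows with an Ensembl ID but no symbol (261, at most 0.0267% of counts) stayed in. Positions come from GENCODE 44 on GRCh38. Within groups the libraries differed beyond sampling noise (chi-square per degree of freedom at least 13.5). Members and lists were chosen with earlier results of these data known. All 6 members are named, of each list the genes past the threshold (at most 6 with the smallest p in each direction), and for each member the 3 nearest profiles; other genes were named after their values were seen. Some list genes are counted but not reported here by name or in a figure.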

Additional observations from a re-analysis of the deposited data

How the results depend on the processing

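CADM1 and A2M stayed higher and AQP1 stayed lower, past the threshold, in all 15 alternatives, with adjusted p up to 0.00313, 0.0243 and 0.0446. The count of 2 higher and 1 lower markers was also the same at an adjusted p below 0.01. SYT11 passed in none, and its log2 fold change turned to -0.014 with upper-quartile factors; with 1 library left out at a time it ran from -0.063 to 0.12. The SYT11 share of synaptotagmin output differed by 4.36 percentage points in TPM and by 0.634 in counts, which are not corrected for length; leaving out a library gave 2.66 to 6.13. Over all genes, 1838 higher and 1675 lower calls became 1060 and 870 at an adjusted p below 0.01, by construction. The lower calls were 1051 with limma on log2(TPM + 0.1), 1047 on log2(TPM + 1) and 851 without its filter, where 1155 were higher; leaving out a library gave 1306 to 2172 higher and 1073 to 2049 lower, the fewest lower without ALDH_High library 2. Of the other state genes, 9 were higher with at least 10 counts in every library. This filter tests fewer genes, and the higher genes that it left out had under 10 counts in an ALDH_Low library. In all 3 limma fits 1 state gene was lower. Leaving out a library gave 12 to 16 higher and 1 to 4 lower, 4 without ALDH_High library 1. Lower family genes numbered 2 in the unfiltered limma fit, and 4 to 7 with a library left out. Causes not named here were not tested. Pairing by replicate number was not assumed: the correlation of same-numbered deviations was 0.15, 0.076 and 0.11. The replicate block gave log2 fold changes of 2.14 for CADM1, 2.75 for A2M, -1.70 for AQP1 and 0.032 for SYT11, with 1947 higher and 1801 lower calls over all genes, and changed no call on a marker.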
